A study of Homo sapiens with 8 samples.

Results

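The inhibitors of cyclin-dependent kinases were measured in the pancreatic cancer lines MIA PaCa-2 and Capan-1 by all 14 probes on the array whose gene name is CDKN1A, CDKN1B, CDKN1C, CDKN2A, CDKN2B, CDKN2C, CDKN2D, CDKN3 or MTAP. They were selected by gene name, and they are 9 of the 27363 gene names and 14 of the 34127 gene probes on the array. MTAP is no inhibitor. It was included because it lies beside CDKN2A and CDKN2B on chromosome 9p21. Both lines are human, MIA PaCa-2 grown from a tumour in the pancreas itself and Capan-1 from cancer that had spread to the liver. For each line there were 2 arrays of cells transfected with 10 nM HOXB7-specific siRNA and collected 48 hours later, and 2 arrays of parental cells, which received no siRNA. Which HOXB7 siRNA duplex was used for the arrays is not given in the sources used here. No array of cells given a scrambled siRNA was analysed here, so an effect of HOXB7 loss and an effect of transfection cannot be told apart. The arrays of each line were taken to share a slide of their own. Positions on it were counted from the order of the samples, which puts siRNA samples at 1 and 2 and parental samples at 3 and 4. If so, slide and cell line, and position and treatment, cannot be told apart either.

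The CIP/KIP inhibitors p21, p27 and p57, encoded by CDKN1A, CDKN1B and CDKN1C, bind complexes of cyclins with CDK2 and other kinases and hold back entry into and progress through S phase. The INK4 inhibitors p16, p15, p18 and p19, encoded by CDKN2A, CDKN2B, CDKN2C and CDKN2D, bind CDK4 and CDK6 and keep them from cyclin D. CDKN2A also encodes ARF, which binds MDM2. CDKN3 encodes a phosphatase that removes an activating phosphate from CDK2 and whose RNA is typically abundant in dividing cells. MTAP encodes an enzyme of the pathway that returns methylthioadenosine to methionine. CDKN2A is among the genes most often lost in pancreatic ductal adenocarcinoma, and deletions there often take CDKN2B and MTAP with them. The DNA copy number of CDKN2A, CDKN2B and MTAP was not measured in these samples.

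The siRNA target was read first. HOXB7 was at 3.54% and 5.85% of the 75th percentile of the array's gene probes on MIA PaCa-2's parental arrays and was not well above background on either siRNA array, at 0.460% and 0.454%. It was at least 2.81-fold lower after siRNA (adjusted p = 0.0173), a call that was lost without MIA PaCa-2 siRNA replicate 1, without MIA PaCa-2 parental replicate 2 and without any 1 of the 4 Capan-1 arrays (adjusted p = 0.0556 to 0.083). In Capan-1 it was at 17.9% and 19.7% on the parental arrays and at 2.62% and 3.59% on the siRNA arrays, a log2 fold change of -2.62 (SE 0.26, adjusted p = 0.121). The siRNA and parental arrays did not overlap in either line. With normexp background correction the log2 fold changes shrank to -0.098 in MIA PaCa-2, against -0.66 for Capan-1. Between 69.2% and 74.3% of all spots on an array were well above background. Of the ductal epithelial markers examined, 9 of 9 genes were well above background in Capan-1 and 5 of 9 in MIA PaCa-2, where CDH1, EPCAM, CEACAM6 and TSPAN8 were not well above background on any of the 4 arrays.

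At 9p21 most probes of CDKN2A, CDKN2B and MTAP were not well above background on most arrays of both lines. Of the 6 probes of these 3 genes, 1 was well above background on all 8 arrays, 2 on 1 array each and 3 on none. The calls are those of the scanner software, which marks a spot as well above background when it exceeds the background by a set multiple of its standard deviation. That multiple was 13 here, so a probe without the call may still have a weak signal. Over all 34127 gene probes, 59.7% were well above background on all 8 arrays and 18.3% on none. The probes are 60 bases long and are given below where they lie in coding sequence, since those are the ones that report the protein-coding part of the transcripts. Coordinates are those of the array annotation on hg18, capitals mark CpG dinucleotides, and both MTAP probes join parts of the transcript that lie apart on the genome.
CDKN2A coding probe, chr9:21960901-21960960, minus strand: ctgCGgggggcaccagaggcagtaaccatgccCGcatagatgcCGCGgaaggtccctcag
MTAP first coding probe, chr9:21792766-21805476, plus strand: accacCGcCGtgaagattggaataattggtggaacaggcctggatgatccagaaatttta
MTAP later coding probe, chr9:21827969-21844648, plus strand: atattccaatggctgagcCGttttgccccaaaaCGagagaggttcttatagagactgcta
The CDKN2A probe is the richest in G and C of the 14, at 66.7%, and both MTAP probes stand at 45%.

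The CDKN2A coding probe lies in the part of the gene read by both p16 and ARF transcripts. Its unscaled intensity was 0.981 and 1.01 on the siRNA arrays of MIA PaCa-2, 1.13 and 1.46 on its parental arrays, 1.58 and 2.54 on the Capan-1 siRNA arrays and 1.24 and 3.44 on the Capan-1 parental arrays. None of the 8 values was well above background, and the dimmest probe that was had an intensity between 3.62 and 5.21, depending on the array. The CDKN2B probe, which lies near the 5′ end of its transcript, was likewise not well above background on any array, at 1.06 to 4.71. On the Capan-1 parental replicate 2 array it reached the highest of these values, inside the range of the dimmest detected probes.

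The other CDKN2A probe, chr9:21958039-21958098 on the minus strand in the 3′ untranslated part, was well above background on all 8 arrays. It lies 2802 bases from the coding probe. Its intensity was 147 and 155 on the siRNA arrays of MIA PaCa-2, 157 and 117 on the parental arrays, 45.6 and 61.9 on the Capan-1 siRNA arrays and 48.2 and 57.3 on the Capan-1 parental arrays. Every MIA PaCa-2 value was above every Capan-1 value. The 2 probes of the gene thus disagreed on every array, and a level for CDKN2A as a gene cannot be given from them. Beside the 3′ probe, on the opposite strand, the probe of the antisense gene CDKN2A-AS1 was also well above background on all 8 arrays, at 14.3 to 24.3. Whether either of these probes also binds RNA from elsewhere in the genome was not tested.

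The MTAP probes were dim in both lines. The first coding probe was at 11.1 on the MIA PaCa-2 siRNA replicate 1 array, where it was well above background, and at 1.98 to 4.84 on the other 7 arrays, where it was not. The later coding probe was at 17.96 on the MIA PaCa-2 parental replicate 2 array, where it was well above background, and between 0.895 and 1.10 on the others. The 3′ probe, chr9:21855830-21855889 on the plus strand, stayed between 0.947 and 2.01 and was not well above background on any array. The 2 arrays with such a call were different arrays for the 2 probes, and on neither was another MTAP probe well above background. No fold change is given for CDKN2B, for MTAP or for the CDKN2A coding probe, because no group had them well above background on both of its arrays.

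**Figure D1:**
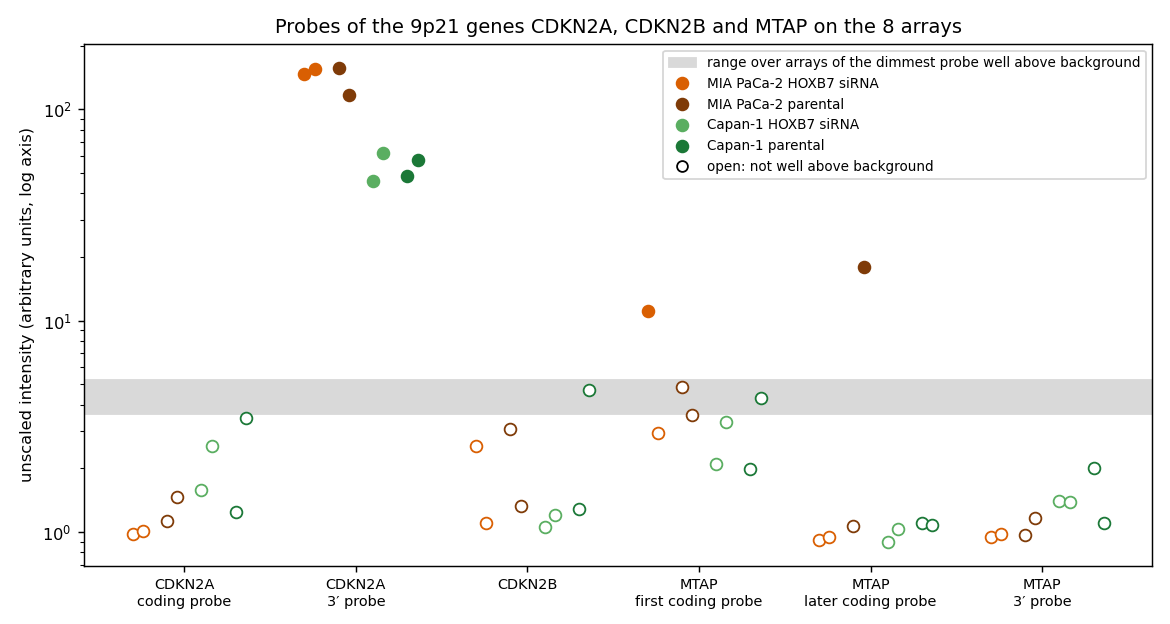
Unscaled intensity in arbitrary units (log axis) of the 6 probes of CDKN2A, CDKN2B and MTAP on each of the 8 arrays. Colours mark the 4 groups, filled points are well above background, open points are not, and the grey band spans 3.62 to 5.21, the dimmest detected probe of each array. The 3′ probe of CDKN2A was filled on all 8 arrays, and the other 5 probes were open except for 1 array each for both MTAP coding probes.

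Dim probes were not confined to the 3 genes. From the first MLLT3 probe to the ELAVL2 probe, 3.35 Mb apart around the locus, there were 28 probes besides the 6 described. The probes of MLLT3 and ELAVL2 themselves are counted among them. Of the 28, 18 (64.3%) were not well above background on any array and 6 (21.4%) were on all 8. This stretch was chosen after the values were seen. Among the undetected probes were those of MLLT3, a chromatin reader, of FOCAD, a focal adhesion protein gene, at 1.15 to 3.58, of HACD4, an enzyme gene of very long fatty acid synthesis, at 1.22 to 1.68, and of KLHL9, an adaptor of a ubiquitin ligase, at 1.73 to 6.67. The probe of the long noncoding RNA gene CDKN2B-AS1 was at 1.20 to 1.72. Most of the type I interferon genes, which cluster here and are silent in resting cells, were also undetected. IFNA4 was the exception with a signal on all 8 arrays, at 52.1 to 59.5 in MIA PaCa-2 and 7.18 to 16.1 in Capan-1. Its near-identical copies leave it uncertain which interferon gene the probe read.

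The other 5 of the 6 detected probes were CDKN2A-AS1, LOC729983, LOC402360, a probe named for the expressed sequence DA734158 and a probe with no gene name. LOC729983 was the brightest of them, at 2402 to 3875. Within 6 Mb of the CDKN2A coding probe, 3 of the 35 probes before MLLT3 (8.57%) were not well above background on any array. Beyond ELAVL2 it was 8 of 20 (40%). Well above background on all 8 arrays were 37.1% of the probes before MLLT3 and 30% of those beyond ELAVL2, against 21.4% between them. The bounds were set at undetected probes after the values were seen, so these shares do not test whether a dim stretch is bounded there. On the telomeric side, the ribosomal protein gene RPS6 was at 56300 to 75946, the amino acid sensing gene RRAGA at 1849 to 3973, and DENND4C and HAUS6 were well above background on all 8 arrays. On the centromeric side, CAAP1, an apoptosis inhibitor gene, was at 106 to 162 on all 8 arrays. Of the 2 TUSC1 probes, 1 was at 592 to 1029 and the other at 1.05 to 1.33. MOB3B, which lies farther still, was well above background on all 4 Capan-1 arrays with each of its 3 probes and on no MIA PaCa-2 array, and it was at least 20.3-fold, 16.8-fold and 4.01-fold lower in parental MIA PaCa-2 (adjusted p = 4.24e-06, 5.54e-06 and 1.52e-05). Among the listed 9p21 neighbours IFNA4 (2.09) and IFT74 (1.75) were higher in parental MIA PaCa-2. These were 2 of the 12 neighbour probes tested, and the 3 of MOB3B were lower, where 39.2% of all probes were higher and 31% lower. With siRNA none of 8 neighbour probes passed in MIA PaCa-2, where PLAA was at 0.87 and TUSC1 at 0.73, and none of 13 passed in Capan-1, where MOB3B was at 0.31 and PLAA at 0.30.

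**Figure D2:**
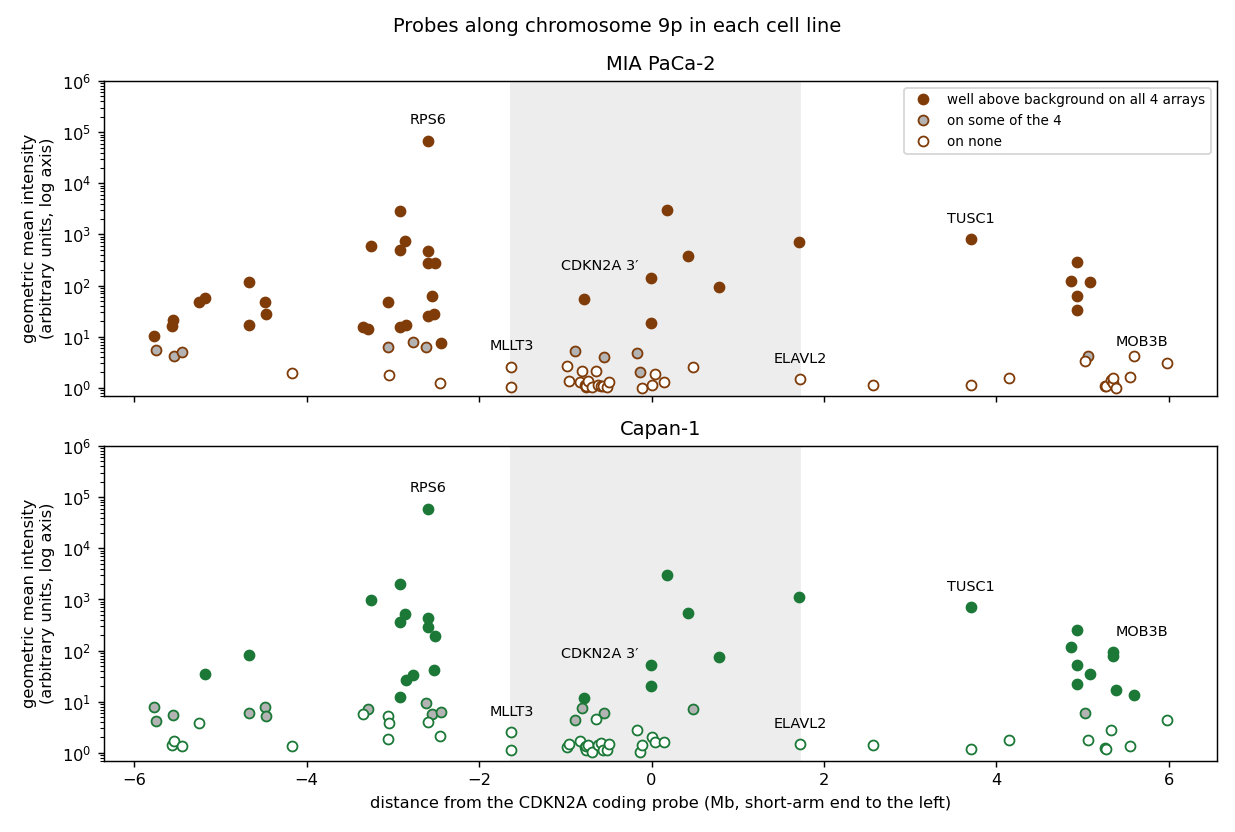
Geometric mean intensity over the 4 arrays of each line (arbitrary units, log axis) of every probe within 6 Mb of the CDKN2A coding probe, against the distance from it in Mb. Filled points were well above background on each of a line's 4 arrays, grey points on some and open points on none, and the grey field runs from MLLT3 to ELAVL2, where 21 of 34 probes, the members included, were open in both lines.

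The other 9 probes, of 7 genes, were well above background on all 8 arrays, so these genes are described by level. All levels below are percent of the array's 75th percentile, and levels of different probes are not set against each other. Differences between parental MIA PaCa-2 and parental Capan-1 cells passed the limma test for 7 of the 9 probes, 6 of them higher in MIA PaCa-2 and 1 lower. Of all 24964 probes tested in that comparison 70.2% passed, 39.2% of them all being higher and 31% lower, so a share of 7 in 9 is near the background and says little about these genes in particular. The ductal markers moved with the line, summing over 12 probes to 40011% to 43615% on the parental MIA PaCa-2 arrays and 131025% to 138220% on the parental Capan-1 arrays. PRSS1, an acinar protease gene, stood at 710% to 1205% on the Capan-1 arrays and was not well above background on any MIA PaCa-2 array. The other acinar markers did not share this. CEL was higher in parental MIA PaCa-2 with the probe tested (log2 fold change 0.60, adjusted p = 0.0019). CPA1, CPB1 and PNLIP were not well above background on any array of either line. Fibroblast markers summed over 6 probes to 1400% to 1475% on the parental MIA PaCa-2 arrays, nearly all from COL1A2, and to 11.6% to 12.6% in parental Capan-1, with LUM not well above background on any array. Leukocyte markers summed over 8 probes to 402% to 416% and 70.6% to 74.6%, mostly from CD14 in MIA PaCa-2, and 3 of the 5 PTPRC probes were not well above background on any array. Their part in the differences below was not tested.

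CDKN1A, the p21 gene, was the 1 probe lower in MIA PaCa-2. Its level was 4.86% and 4.15% on the siRNA arrays of MIA PaCa-2, 6.99% and 3.41% on its parental arrays, 40.5% and 41.7% on the Capan-1 siRNA arrays and 35.5% and 37.0% on the Capan-1 parental arrays. Every Capan-1 value lay far above every MIA PaCa-2 value. Parental MIA PaCa-2 was 7.43-fold below parental Capan-1 (log2 fold change -2.89, SE 0.32, adjusted p = 0.000334). The parental MIA PaCa-2 arrays differed more from each other than any other pair at this probe, and the line difference was -3.41 without MIA PaCa-2 parental replicate 1 and -2.38 without parental replicate 2. With normexp background correction, whose offset shrinks fold changes of dim probes, the line difference was -1.27 and still passed. With siRNA the log2 fold change was -0.12 in MIA PaCa-2 (95% interval -0.89 to 0.65, adjusted p = 0.873), and it turned to 0.40 without parental replicate 1 and to 0.083 with normexp background correction. In Capan-1 it was 0.18 (-0.59 to 0.95, adjusted p = 0.854).

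CDKN1B, the p27 gene, had 2 probes. The first lies in coding sequence and the other, chr12:12766207-12766266, in the 3′ untranslated part, where it was printed on 10 spots. The coding probe is shown because it gave the smallest adjusted p among the 9 probes for siRNA treatment.
CDKN1B coding probe, chr12:12762386-12762445, plus strand: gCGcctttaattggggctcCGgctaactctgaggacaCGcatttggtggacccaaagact
On the coding probe the level was 156% and 137% on the siRNA arrays of MIA PaCa-2, 101% and 93.6% on its parental arrays, 63.1% and 53.3% on the Capan-1 siRNA arrays and 53.2% and 48.8% on the Capan-1 parental arrays. The siRNA arrays lay above the parental arrays in both lines, in Capan-1 by a narrow margin. The log2 fold change was 0.59 in MIA PaCa-2 (SE 0.12, adjusted p = 0.0751) and 0.19 in Capan-1 (SE 0.12, adjusted p = 0.565). The Capan-1 value was 0.066 without siRNA replicate 1, 0.31 without siRNA replicate 2, 0.12 without parental replicate 2 and 0.030 with no scaling between arrays. The difference between the lines in this effect was 0.40 (95% interval -0.03 to 0.83, adjusted p = 0.477).

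On the 10-spot probe the level was 235% and 214% on the siRNA arrays of MIA PaCa-2, 171% and 193% on the parental arrays, 122% and 124% on the Capan-1 siRNA arrays and 103% on both Capan-1 parental arrays. Again the siRNA values were the higher ones in each line, with no overlap. The log2 fold change was 0.31 in MIA PaCa-2 (SE 0.10, adjusted p = 0.162) and 0.26 in Capan-1 (SE 0.10, adjusted p = 0.371), and in MIA PaCa-2 it was -0.017 when arrays were scaled by their spike-in probes. Neither probe passed the test in either line. The coding probe passed in MIA PaCa-2 with normexp background correction (0.50, adjusted p = 0.0181), with only probes detected on all 8 arrays (adjusted p = 0.0421) and when the spread was fitted as a trend over intensity (adjusted p = 0.0310), and its adjusted p ranged from 0.0181 to 0.879 over all alternatives. The highest came with spike-in scaling, where its log2 fold change was 0.27, and with no scaling between arrays it was 0.37 (adjusted p = 0.419). Between parental lines CDKN1B was higher in MIA PaCa-2 with both probes, 1.91-fold with the coding probe (adjusted p = 0.000797) and 1.77-fold with the 10-spot probe (adjusted p = 0.000472). Both calls were lost with spike-in scaling, at adjusted p = 0.0723 and 0.120.

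CDKN1C, the p57 gene, an imprinted inhibitor that acts mainly in development, was at 188% and 174% on the siRNA arrays of MIA PaCa-2, 225% and 172% on the parental arrays, 64.5% and 53.6% on the Capan-1 siRNA arrays and 61.9% and 63.5% on the Capan-1 parental arrays. The treatments overlapped within each line and the lines did not overlap. Parental MIA PaCa-2 was 3.13-fold above parental Capan-1 (log2 fold change 1.65, SE 0.16, adjusted p = 0.00019). With siRNA the log2 fold change was -0.12 in MIA PaCa-2 (95% interval -0.51 to 0.27) and -0.09 in Capan-1 (-0.48 to 0.30).

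The INK4 genes away from 9p21 were both detected. CDKN2C, the p18 gene, was at 309% and 316% on the siRNA arrays of MIA PaCa-2, 375% and 397% on the parental arrays, 156% and 139% on the Capan-1 siRNA arrays and 150% and 169% on the Capan-1 parental arrays. The siRNA arrays lay below the parental arrays in MIA PaCa-2 and overlapped them in Capan-1. The log2 fold change was -0.31 in MIA PaCa-2 (SE 0.10, adjusted p = 0.179) and -0.12 in Capan-1 (SE 0.10, adjusted p = 0.661). The MIA PaCa-2 value was -0.52 with no scaling between arrays and -0.63 with spike-in scaling. Parental MIA PaCa-2 was 2.42-fold above parental Capan-1 (adjusted p = 9.13e-05).

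CDKN2D, the p19 gene, was at 427% and 409% on the siRNA arrays of MIA PaCa-2, 541% and 552% on the parental arrays, 361% and 331% on the Capan-1 siRNA arrays and 398% and 339% on the Capan-1 parental arrays. As with CDKN2C, the treatments were apart in MIA PaCa-2 only. The log2 fold change was -0.39 in MIA PaCa-2 (SE 0.11, adjusted p = 0.127), which passed with normexp background correction (-0.43, adjusted p = 0.0237), and -0.09 in Capan-1 (SE 0.11, adjusted p = 0.774). Without scaling the MIA PaCa-2 value was -0.60, and -0.71 with spike-in scaling (adjusted p = 0.215 and 0.879). The difference between the lines in this effect did not pass, at -0.30 (95% interval -0.67 to 0.07, adjusted p = 0.524). Parental MIA PaCa-2 was 1.49-fold above parental Capan-1 (adjusted p = 0.00363), a call lost with spike-in scaling (adjusted p = 0.311). On the siRNA arrays the difference between the lines was 0.27 against 0.57 on the log2 scale on the parental arrays, with no test.

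On the scale of percent of the 75th percentile, the 3′ probe of CDKN2A was at 59.4% and 59.9% on the siRNA arrays of MIA PaCa-2, 47.9% and 44.6% on the parental arrays, 18.2% and 23.4% on the Capan-1 siRNA arrays and 18.2% and 18.4% on the Capan-1 parental arrays. The siRNA arrays lay above the parental arrays in MIA PaCa-2. The log2 fold change was 0.37 there (SE 0.13, adjusted p = 0.197) and 0.17 in Capan-1 (SE 0.13, adjusted p = 0.613). The MIA PaCa-2 value was 0.15 with no scaling between arrays and 0.044 with spike-in scaling. Parental MIA PaCa-2 was 2.53-fold above parental Capan-1 (adjusted p = 0.000205). The coding probe of the same gene was not well above background on any array of either line.

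CDKN3, the phosphatase gene, had 2 coding probes, which read different parts of the transcript. They are shown together because they gave the smallest differences between the lines of the 9 probes.
CDKN3 upstream probe, chr14:53936384-53936443, plus strand: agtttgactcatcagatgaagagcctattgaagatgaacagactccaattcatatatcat
CDKN3 junction probe, chr14:53948134-53952385, plus strand: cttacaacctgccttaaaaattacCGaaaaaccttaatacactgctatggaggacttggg
The junction probe spans 4252 bases of the genome and so reads only spliced RNA. Its level was 1318% and 1293% on the siRNA arrays of MIA PaCa-2, 1265% and 1309% on the parental arrays, 1124% and 1153% on the Capan-1 siRNA arrays and 1224% and 1252% on the Capan-1 parental arrays. The upstream probe was at 355% and 363% on the siRNA arrays of MIA PaCa-2, 294% and 320% on the parental arrays, 309% and 350% on the Capan-1 siRNA arrays and 338% and 349% on the Capan-1 parental arrays. Neither probe passed between the parental lines, at log2 fold changes of 0.06 (95% interval -0.13 to 0.24, adjusted p = 0.532) for the junction probe and -0.16 (-0.40 to 0.08, adjusted p = 0.178) for the upstream probe. With siRNA the junction probe gave 0.02 in MIA PaCa-2, -0.30 with spike-in scaling, and -0.12 in Capan-1, and the upstream probe gave 0.23, -0.10 with spike-in scaling, and -0.06 (adjusted p = 0.912, 0.544, 0.263 and 0.826 in that order for the scaling by percentile).

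**Figure D3:**
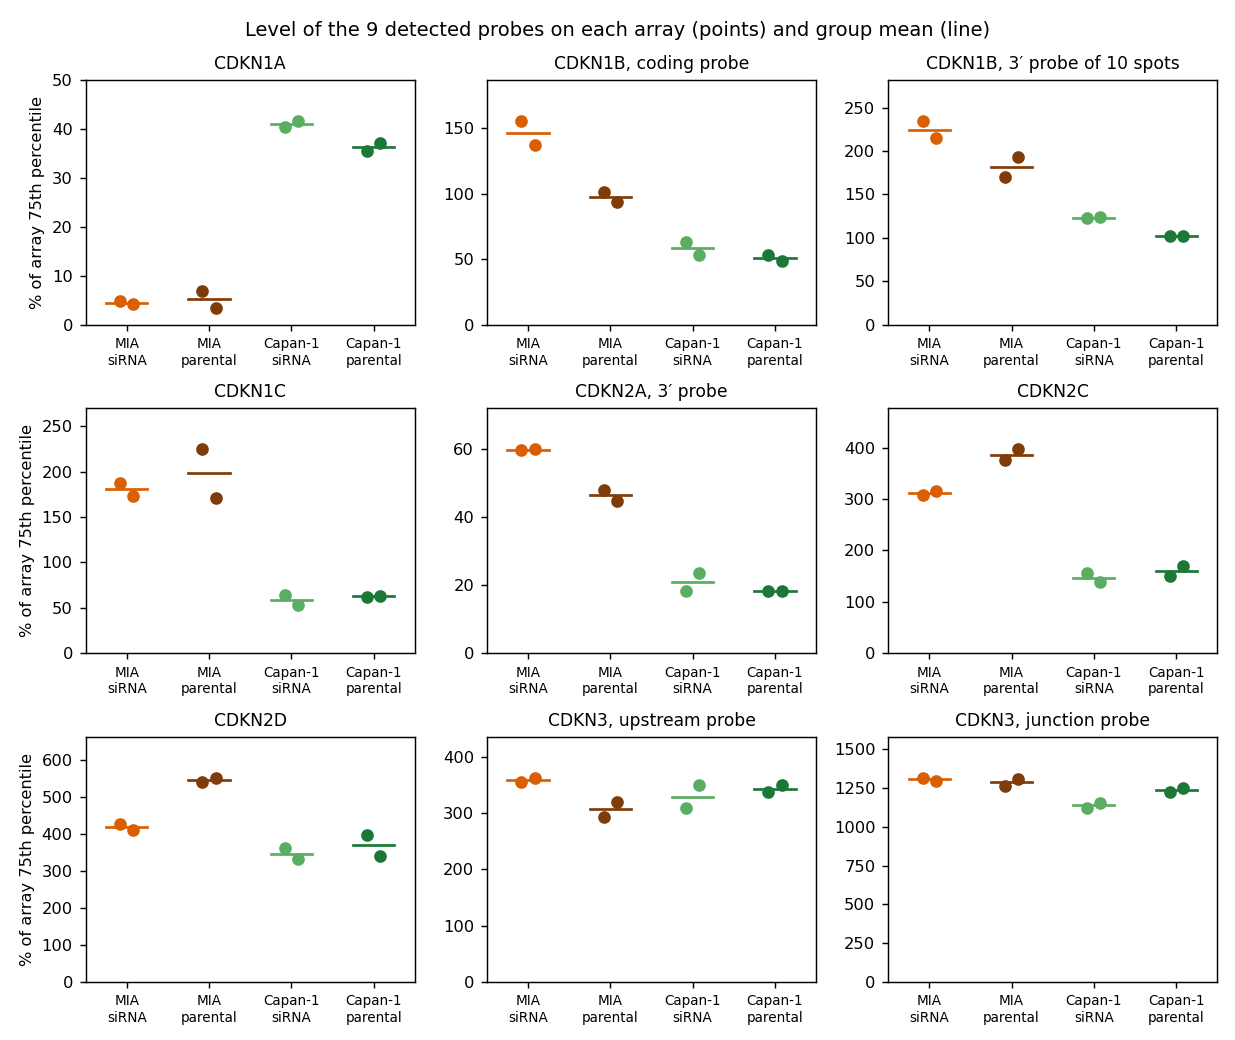
Level of the 9 detected probes, in percent of the array's 75th percentile on a linear axis from 0, with 1 point per array and a line at the mean of the 2 arrays of each group (MIA stands for MIA PaCa-2). CDKN1A was the 1 gene with its higher levels in Capan-1, both CDKN1B probes were highest on the siRNA arrays of MIA PaCa-2, and the levels of CDKN3 were close in both lines.

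Set against all probes, siRNA treatment moved none of the 9 probes past the threshold. In MIA PaCa-2 0 of 9 passed, where 1.92% of all 23711 probes tested did. In Capan-1 0 of 9 passed against 0.00428% of 23367, which is 1 probe, and for the difference between the lines 0 of 9 against 0.00783% of 25552. At an unadjusted limma p under 0.05 there were 5 of 9 for MIA PaCa-2, where the background was 20.5%, 1 of 9 in Capan-1 with a background of 12.4% and 0 of 9 for the difference with a background of 11.1%. The 5 probes in MIA PaCa-2 were both CDKN1B probes and the CDKN2A 3′ probe with positive values and CDKN2C and CDKN2D with negative ones. The arrays of both treatments did not overlap for 6 of 9 MIA PaCa-2 and 4 of 9 Capan-1 comparisons, against 51.4% and 54.3% of all probes. The median log2 fold change of the 9 probes was 0.02 for MIA PaCa-2 and -0.06 for Capan-1, beside 0.02 and -0.00083 over all probes. By the interval that holds 99% of the log2 ratios of the parental arrays, 0 of the 9 probes were called in either line. The share of all probes called in this way is not given here, so this count has no background beside it. The same interval called HOXB7 in Capan-1 and did not call it in MIA PaCa-2, where its log2 ratios of -2.94 and -3.69 lay inside limits of 4.10 and 3.98. Permuting 2 against 2 arrays exactly gives no p below 0.333 for 1 gene, so only the fit across all probes was used.

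**Figure D4:**
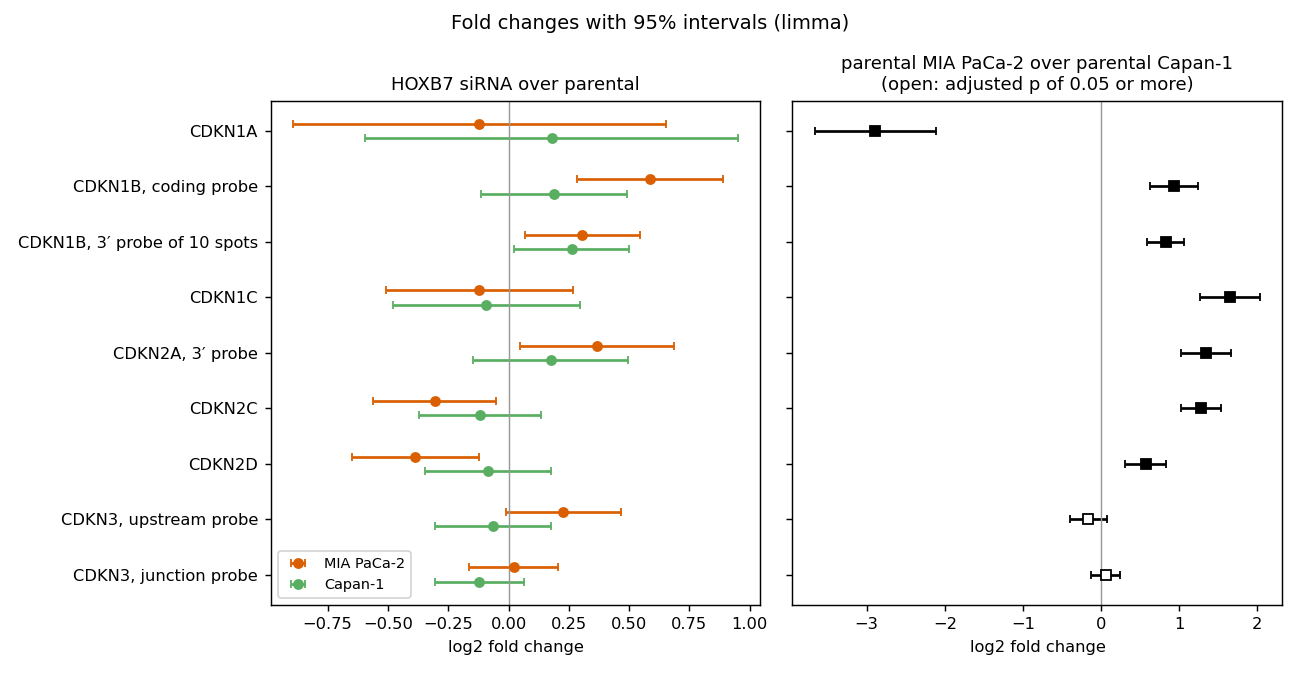
Log2 fold changes of the 9 detected probes with 95% intervals from limma, for HOXB7 siRNA over parental cells in each line (left) and for parental MIA PaCa-2 over parental Capan-1 (right). On the left the MIA PaCa-2 interval of the CDKN1B coding probe runs from 0.29 to 0.89, and on the right only the 2 CDKN3 probes are drawn open, for an adjusted p of 0.05 or more.

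The partners of the inhibitors were read next. Among the CDKs and cyclins bound by them, 13 probes of 11 genes were tested in MIA PaCa-2, of which 1 rose with siRNA and none fell, where 1.92% of all probes passed. It was CCNE1, cyclin E1, which drives CDK2 (log2 fold change 0.74, SE 0.09, adjusted p = 0.0289). CDK2 itself, at -0.79 (adjusted p = 0.0779), and CCNE2, at -0.46 (adjusted p = 0.137), did not pass. In Capan-1 0 of 13 passed, with CDK2 at -0.50 and CCNE1 at 0.27 (adjusted p = 0.350 and 0.333), and the difference between the lines did not pass for CCNE1 (0.46, adjusted p = 0.285). Between parental lines MIA PaCa-2 was lower in 5 of 13 probes and higher in 6, where 31% of all probes were lower and 39.2% higher. CDK6, a kinase held by the INK4 proteins, was lower, at -2.37 on the log2 scale, as were CCND1 (-0.80), CCNE1 (-0.27) and CCNE2 (-1.29 and -1.10). CDK4 was higher by 0.56, CDK2 by 0.47, CCND3 by 0.43, CCNA2 by 0.44 and CCNB1 by 0.79 and 1.61 with its 2 probes.

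Genes of growth arrest and the DNA damage response listed with CDKN1A gave 1 call with siRNA in MIA PaCa-2. It came from 36 probes of 25 genes, where 1.92% of all probes passed. BTG2, an antiproliferative gene, fell by 0.66 (adjusted p = 0.0438), and ZMAT3 stood at 0.65 and DDB2 at -0.50 (adjusted p = 0.0522 for both). In Capan-1 none passed, with SESN1 at 0.78 and CCNG1 at 0.52 (adjusted p = 0.233 and 0.473). Between parental lines 21 of 37 probes were higher in MIA PaCa-2 and 8 lower, where 39.2% of all probes were higher and 31% lower. These genes thus did not share one direction. MDM2 was lower in MIA PaCa-2 with 2 of its 3 probes (-1.75 and -1.36), as were GADD45A (-1.61), AEN, PHLDA3, ZMAT3 and TNFRSF10B, while BTG2 (2.28), SESN1 (2.50), CCNG1, FDXR, SESN2, BAX, BBC3, DDB2, POLK, PPM1D, RRM2B, SERTAD1 and XPC were higher with at least 1 probe.

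The genes that control p27 turnover and transcription, 21 probes of 16 genes, gave 0 calls with siRNA in either line. FBXW7, a ubiquitin ligase subunit for cyclin E, was at 0.41 and DTL, which helps degrade p21, at 0.36 in MIA PaCa-2 (adjusted p = 0.0812 and 0.0894), and FOXO4 was at -0.70 and SKP2 at 0.40 in Capan-1 (adjusted p = 0.305 and 0.262). Between parental lines 9 probes were higher in MIA PaCa-2 and 3 lower, where 70.2% of all probes passed in either direction. SKP2, the ligase subunit that recognises p27, was higher by 1.83 and its partner SKP1 by 1.76 and 1.85, while FOXO1, a transcription factor for CDKN1B, was lower, at -1.45. CUL4A was also lower, and CUL1, COPS5, CKS1B, DTL, FOXO4 and XPO1 were higher. The p27 RNA was itself higher in MIA PaCa-2, as given above.

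Regulators of the INK4 locus gave 0 calls with siRNA in 12 probes in either line, with RNF2 at 0.38 and EZH2 at -0.32 in MIA PaCa-2 and RNF2 at 0.54 and ID1 at 0.32 in Capan-1. Between parental lines 7 of 13 probes were higher in MIA PaCa-2 and 4 lower, where 39.2% of all probes were higher and 31% lower. BMI1, the Polycomb gene known for silencing CDKN2A, was lower in MIA PaCa-2 with both probes (-4.30 and -3.80). TBX2, a repressor of CDKN2A and CDKN1A, was at least 201-fold higher, being not well above background on any Capan-1 array. ID1 (2.10), CBX7 (1.48), PCGF2 (0.80), EZH2 and RNF2 were also higher, and SUZ12 and EED lower.

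The TGF-β pathway, through which CDKN2B and CDKN1A are induced, likewise gave no call with siRNA in either line. KLF6 was at -0.48 in MIA PaCa-2 (adjusted p = 0.236), and TGFBR2 was at 0.33 and TGFBR1 at -0.32 in Capan-1 (adjusted p = 0.624 and 0.730). Between parental lines 6 of 13 probes were higher in MIA PaCa-2 and 6 lower, where 39.2% of all probes were higher and 31% lower. The receptor genes TGFBR2 and TGFBR1 were lower in MIA PaCa-2, at -7.43 and -2.07. SMAD4, which carries the signal to the nucleus, was at least 29.0-fold higher in MIA PaCa-2 and was not well above background on any Capan-1 array. SMAD2 (2.13), SP1, ZBTB17 and KLF6 with 1 of its 2 probes were also higher in MIA PaCa-2, and SMAD3, SMAD7, TGFB1 and KLF4 lower.

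Methionine salvage and the PRMT5 complex, both tied to MTAP through its substrate, gave 2 calls of 19 probes with siRNA in MIA PaCa-2, both lower, where 1.92% of all probes passed. MAT2A and MAT2B encode the subunits of the enzyme that makes S-adenosylmethionine. MAT2A fell by 0.79 (adjusted p = 0.0272) and MAT2B fell by 0.87 (adjusted p = 0.0336), and ADI1, a salvage enzyme, was at -0.62 (adjusted p = 0.0501). The other probe of each subunit did not pass, at -0.41 for MAT2A and -0.92 for MAT2B (adjusted p = 0.118 and 0.064). In Capan-1 0 of 19 passed, with MAT2B at -0.43 and AMD1 at 0.43, and the difference between the lines did not pass for MAT2A (-0.55, adjusted p = 0.230) or MAT2B (-0.44, adjusted p = 0.424). Of the 19 probes, 12 were higher in parental MIA PaCa-2 than in parental Capan-1 and 4 lower, where 39.2% and 31% of all probes were. PRMT5 was lower in parental MIA PaCa-2 with both probes (-0.96 and -1.25). MRI1 (2.60), ADI1 (2.52 and 2.60), SMS (2.62) and APIP (1.87) were higher, as were AMD1, CLNS1A, MAT2A, RIOK1 and SRM, and ENOPH1 and WDR77 were lower. The 4 calls with siRNA in these lists, CCNE1, BTG2, MAT2A and MAT2B, did not hold when any 1 of the 8 arrays was left out, which gave 0 calls in each case. Of the ductal markers, the mucin gene MUC1 fell by 0.92 with siRNA in MIA PaCa-2 with 1 of its 2 probes (adjusted p = 0.0247), the other being at -0.52 (adjusted p = 0.0673). In Capan-1 these probes were at -0.20 and 0.21 (adjusted p = 0.455 and 0.457), and the part of this marker in the other results was not tested.

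Likeness over the 8 arrays was read as the root mean square difference of levels centred on their own mean, among 20276 probes. These were detected on every array and kept a value on each after outlier-flagged spots were dropped. The genes most like CDKN1A, CDKN1B and CDKN3 were found, each by its brightest probe. For CDKN1A they were FAM89A (0.21), KANK1 (0.22) and GSTM2 (0.22), for the 10-spot probe of CDKN1B they were TIMM8A (0.03), ATP6AP2 (0.03) and SRP19 (0.05), and for the junction probe of CDKN3 they were MDH1, ZFP69 and PRIM2 (0.04 each). The root mean square of each probe about its own mean was 1.55 for CDKN1A, 0.45 for CDKN1B and 0.08 for CDKN3. The 8 arrays come from 2 lines, and likeness to CDKN1A and CDKN1B mostly follows the level in each line. Genes like CDKN3 are those that, as it does, vary little over the arrays.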

How the data were processed

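RNA of 2 cell lines was hybridised to one-color Agilent arrays, 2 arrays for each of 4 groups, which were taken from the sample labels. The authors ran Agilent Feature Extraction 9.5.3, and the deposited intensity of each spot is its processed signal. The deposited value table holds the log2 of this signal with no centring or scaling between arrays, and its medians ran from 5.31 to 5.76. The labels do not say whether replicates are separate cultures, so p-values measure the spread between these samples, which may be technical, and the number of arrays limits the precision.

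Outlier-flagged spots were dropped, the log2 values of a probe's spots averaged, and each array's 75th percentile over gene probes subtracted. Detection took the scanner software's call, by majority over spots. Probes detected on both arrays of at least 1 compared group were tested. Means of the 4 groups were estimated from all 8 arrays with limma (version 3.58.1, R 4.3.3; lmFit and two-sided eBayes tests), and p-values were adjusted by the Benjamini-Hochberg method, with 0.05 as the threshold. For a group below detection the fold is a lower bound against the dimmest detected probe of each array. Of the 34127 probes, 24827 took a current symbol through their accession. The fit was tested on simulated data. Figures were drawn with Python 3.11.15 and matplotlib 3.10.9.

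The members and lists were chosen with earlier results of these data known. All member probes are named. Of each list the genes past the threshold are named and, where under 3 passed with siRNA, up to 2 with the largest change among detected, non-overlapping probes. Alternatives were normexp background correction (offset 50), quantile, no or spike-in scaling, outlier spots kept, the deposited value table, the filter on dim probes, fits of the compared groups alone, a block for the replicate number, an intensity trend, each array left out (a lone array is then assumed to vary like the other groups) and an interval from the parental arrays over windows of 1001 probes. A line difference on the siRNA arrays was added after seeing the data. No genome or protein sequences were used here. Some listed genes are not reported here.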

Additional observations from a re-analysis of the deposited data

How the results depend on the processing

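Of the alternatives to the 4 counts of members past the threshold, those that changed a count were normexp (2 in MIA PaCa-2), only probes detected on all 8 arrays (1) and the intensity trend (1), and spike-in scaling between parental lines (4 in place of 7). Calls over all probes moved the same way. In MIA PaCa-2, 222 of 23711 were lower and 233 higher, against 529 and 466 with normexp and 690 and 586 with the trend. With only probes detected on all 8 arrays, 545 of 20359 were lower and 443 higher. Between parental lines, 7740 of 24964 were lower and 9780 higher, against 4676 and 5509 with spike-in scaling. The pathway lists gave 4 calls with siRNA in MIA PaCa-2, 10 with normexp, 11 with all 8 arrays, 14 with the trend, and 0 with no scaling, spike-in scaling, no filter, the groups compared alone, the replicate block or any 1 array left out. In Capan-1 they gave 1 call with spike-in scaling, and between parental lines 54 in place of 96, or 84 to 98 with 1 array left out. HOXB7 in MIA PaCa-2 was -0.098 with normexp (adjusted p = 0.599), and with no filter, the groups alone or the replicate block its -3.32 did not pass (adjusted p = 0.0515, 0.111 and 0.169). Without 1 array it ran from -3.68 to -2.95, and from -2.84 to -2.39 in Capan-1. In Capan-1 HOXB7 passed at -0.66 with normexp, -2.77 without scaling, -2.67 with spike-in scaling and -2.62 with the trend.

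Without scaling and with spike-in scaling the median of all probes moved to -0.19 and -0.30 in MIA PaCa-2 and to -0.16 and -0.06 in Capan-1. Direction turned with normexp for CDKN1A (0.083) and the CDKN3 junction probe (-0.0054) in MIA PaCa-2. It turned for that CDKN3 probe without scaling (-0.20) and with spike-in scaling (-0.30, and -0.12 for the difference of effects), and with quantile scaling between parental lines (-0.039). With spike-in scaling the 10-spot CDKN1B probe gave -0.017 in MIA PaCa-2 and -0.22 for the difference (-0.015 without scaling), the CDKN3 upstream probe -0.096, and the CDKN2A 3′ probe -0.072 for the difference. On the siRNA arrays the CDKN3 upstream probe was 0.13 higher in MIA PaCa-2. With 1 array left out, MIA PaCa-2 values ran from -0.64 to 0.40 for CDKN1A, -0.32 to 0.074 for CDKN1C and -0.0037 to 0.046 for the CDKN3 junction probe. Capan-1 values ran from -0.23 to 0.042 for CDKN1C, -0.0068 to 0.36 for CDKN2A, -0.20 to 0.030 for CDKN2D and -0.15 to 0.027 for the CDKN3 upstream probe. Differences of effects ran from -0.82 to 0.22 for CDKN1A, -0.047 to 0.13 for the 10-spot CDKN1B probe and -0.23 to 0.17 for CDKN1C. The cause of these changes was not tested. Replicate numbers did not pair the arrays, with correlations of deviations of 0.02 and 0.04 over 20359 probes in the 2 lines. With the replicate block the member counts were 0 in each line, 0 for the difference and 7 between parental lines.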
